A study of Rattus norvegicus with 59 samples.

Results

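Expression of 4 genes of the epithelial sodium channel was followed in the lungs of rats after inhalation of crystalline silica. They were the channel subunits Scnn1b (beta) and Scnn1g (gamma), the channel-activating serine protease Prss8 and the serine protease inhibitor Spint2. They were taken by symbol as the table's entries for the channel, its protease and the protease's inhibitor, by a rule that used no measured value, though the set was proposed with earlier results of these data known. They make up 4 of the 2887 complete entries of the table analysed, and all 4 passed the filter on low values. The table covered part of the genome, mostly chromosome 1, and the alpha subunit Scnn1a was not analysed here.

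The epithelial sodium channel, ENaC, sits in the apical membrane of epithelial cells and lets sodium pass from the lumen into the cell. A channel is assembled from alpha, beta and gamma subunits, and in the lung it drives the clearance of fluid from airspaces and airways. The gamma subunit carries a tract that proteases cut out to open the channel: furin cuts on one side of it during maturation, and membrane-anchored proteases such as prostasin, the product of Prss8, cut on the other side. Spint2 encodes HAI-2, a Kunitz-type inhibitor that blocks prostasin and its activating protease matriptase. The kinase encoded by Sgk1 raises the amount of channel at the cell surface.

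The groups were male Fischer rats of the strain F344/DuCrl, 3 months old at purchase, exposed in a whole-body chamber either to crystalline silica or to air. Silica rats breathed 15 mg/m3 for 6 h a day on 5 days. Lungs were taken at 6 times, namely 1, 3 and 6 months and then 9, 12 and 18 months later, from 5 rats per group, except 4 air rats at 9 months. Each of the 59 libraries, 30 from silica rats and 29 from air rats, came from a piece of lung of 1 rat, so every value is an average over all cell types in that piece. Fewer cells of a type and less RNA per cell cannot be told apart in such samples.

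The genes are shown here with the DNA in front of them, and both subunit genes are neighbours on chromosome 1. Whether these sequences bear on the measured values was not tested. Each sequence is a RefSeq promoter of the rat build GRCr8, 250 bases before to 50 bases after the gene's start, 5′ to 3′ on the gene's strand. The table held an entry for 3 of the 4 genes, and Prss8 is named only. Capitals mark matches to GGGCGG (the GC box), CAGGTG (an E-box) and TGANTCA (the AP-1 site), each searched on both strands, so that CCGCCC and CACCTG are GGGCGG and CAGGTG read on the opposite strand. The Spint2 promoter lies at chr1:93708042-93708341 on the minus strand, that of Scnn1g at chr1:185735975-185736274 on the plus strand and that of Scnn1b at chr1:185861126-185861425 on the plus strand.
Spint2: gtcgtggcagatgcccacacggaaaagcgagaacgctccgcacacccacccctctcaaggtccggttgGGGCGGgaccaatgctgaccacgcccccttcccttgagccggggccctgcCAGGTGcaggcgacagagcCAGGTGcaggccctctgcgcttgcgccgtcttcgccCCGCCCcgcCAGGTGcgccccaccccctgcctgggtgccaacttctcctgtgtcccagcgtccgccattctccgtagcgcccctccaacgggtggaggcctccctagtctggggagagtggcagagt
Scnn1g: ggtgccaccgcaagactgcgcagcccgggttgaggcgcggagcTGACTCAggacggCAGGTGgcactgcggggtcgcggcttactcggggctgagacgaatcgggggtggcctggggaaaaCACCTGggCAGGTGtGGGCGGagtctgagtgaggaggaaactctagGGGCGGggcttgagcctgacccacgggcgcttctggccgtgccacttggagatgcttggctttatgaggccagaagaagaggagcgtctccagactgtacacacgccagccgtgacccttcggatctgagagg
Scnn1b: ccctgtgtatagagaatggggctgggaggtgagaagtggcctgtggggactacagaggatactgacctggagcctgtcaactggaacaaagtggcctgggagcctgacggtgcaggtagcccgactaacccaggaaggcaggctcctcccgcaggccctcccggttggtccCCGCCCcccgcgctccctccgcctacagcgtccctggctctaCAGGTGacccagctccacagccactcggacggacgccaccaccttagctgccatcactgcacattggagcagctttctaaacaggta
The GC box matched at 2 places in the Spint2 window, 2 in Scnn1g and 1 in Scnn1b, and was found in 33.1% of all 33469 promoters of that length. CAGGTG matched 3 times in Spint2, 3 times in Scnn1g and 1 time in Scnn1b. It was present in 18.8% of all promoters, and in 0.359% of them at 3 or more places. TGANTCA matched 1 time, in Scnn1g, as TGACTCA at position -207 from the start, and was present in 7.33% of promoters. Neither AGAACA, an arm of the glucocorticoid receptor's site (20.7% of promoters), nor TATAAA (14.2%) was found in any of the 3 windows. GC content was 69.3% in Spint2, 65% in Scnn1g and 62.7% in Scnn1b, against a median of 51.7% over all promoters. Motifs were chosen after these sequences were seen, and a match is a description of letters, not of a bound site.

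Values are FPKM, fragment numbers scaled for transcript length and for the mapped total of the library, which allow levels of different genes to be set side by side. Changes are differences of mean log2(FPKM + 0.5) between silica and air rats of the same time, fitted with limma over all 1278 tested genes. A gene is called when its Benjamini-Hochberg adjusted p is under 0.05. Over all tested genes 8.84% were called at 1 month (8.45% higher and 0.391% lower in silica rats), 18.2% at 3 months (15.9% and 2.35%) and 27.6% at 6 months (21.2% and 6.42%). At 9 months 30.8% were called (19.5% higher and 11.3% lower), at 12 months 23.6% (14.6% and 9.08%) and at 18 months 15.3% (11.8% and 3.52%). In the mean over the 6 times 57.6% were called, 37.5% higher and 20.1% lower, so a call is common background in this table. Single libraries moved these numbers: the 113 genes called at 1 month were 44 without air rat 2 and 66 without silica rat 5, and the 196 at 18 months were 112 without silica rat 4. The 302 at 12 months were 195 without silica rat 1, 198 without silica rat 4 and 457 (35.8%) without silica rat 3. Of the calls in the mean over times 65.1% were higher in silica rats, against 44.1% after centring each library on its median and 41.1% after quantile normalization. At 1 month that share was 95.6%, against 58.5% and 61.0%, at 3 months 87.1%, against 48.1% and 44.5%, and at 6 months 76.8%, against 58.9% and 46.6%. At 9 months it was 63.4%, against 54.2% and 45.8%, at 12 months 61.6%, against 47.6% and 43.4%, and at 18 months 77.0%, against 50.7% and 52.3%. Between air rats of 18 months and 1 month it was 79.6%, against 42.5% and 48.5%.

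A single library stood apart from its group in several of the 4 genes and cell type markers. In silica rat 3 at 12 months, Spint2 was at 54.6 FPKM, against 71.4 to 84.8 in the other 4 silica rats of that time and 49.4 to 56.8 in the air rats. Its neutrophil markers summed to 16.9 FPKM, against 43.9 to 66.9 in the other 4 and 14.8 to 22.3 in air rats, and its alveolar type 2 markers to 138, against 219 to 318 and 136 to 166. It lay inside the air range in each of these 3 measures and in its endothelial marker sum (86.9, against 79.7 to 91.1). It lay below the air range in Prss8 (8.88 FPKM, against 9.41 to 11.9) and Scnn1b (3.73, against 4.21 to 5.44). Its macrophage marker sum was also below that range (6.90, against 7.11 to 10.2). Its label was kept. It was singled out partly by its low Spint2, and leaving out a group's lowest silica rat raises the change. Values and p-values without that library are therefore descriptions, not tests of their own. The values of the 4 genes and the counts of the gene lists that include it are given with and without it. For single list genes and markers the mean over times moved by at most 0.066 on the log2 scale without it, and the 12-month change by up to 0.39. The sum of FPKM over all complete entries was 31740 in silica rat 5 of 3 months and 38613 in air rat 3 of 9 months. Medians were 14934 in silica and 14790 in air libraries. That silica rat was the lowest of its group in Spint2, Prss8 and Scnn1g. Without it 258 genes were called at 3 months, in place of 233. Without that air rat 332 were called at 9 months, in place of 393. The reason was not tested.

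The lung's own markers were partly covered. Of the alveolar type 2 markers 3 of 10 were in the table (Napsa, a surfactant-processing protease, Lpcat1, a surfactant lipid enzyme, and Cebpa, a differentiation factor), and of the alveolar type 1, ciliated and general epithelial markers 0 of 6 each. The type 2 sum ranged from 138 to 318 FPKM in silica rats, with a median of 229, against 130 to 166 with a median of 146 in air rats. All 3 were called higher at every time, and their sum differed by 0.65 on the log2 scale in the mean over times, or 0.68 without silica rat 3 of 12 months. By time the difference in that sum was 0.42, 0.62, 0.79, 0.87, 0.64 (0.83 without silica rat 3) and 0.54 from 1 to 18 months. It moved together with the Spint2 values below, and its part in them was not tested.

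Over all libraries the order of the 4 levels was Spint2, Prss8, Scnn1g and Scnn1b. Each gene reached an FPKM of at least 1 in 59 of 59 libraries. Spint2 averaged 70.4 ± 6.11 FPKM in silica rats and 54.3 ± 3.64 FPKM in air rats (SD, n = 30 and 29). Prss8 averaged 12.2 ± 1.90 in silica rats and 10.2 ± 1.52 in air rats, Scnn1g 9.69 ± 1.29 and 9.51 ± 1.65, and Scnn1b 5.35 ± 0.925 and 4.38 ± 0.453. Spint2 lay above Prss8, and Scnn1g above Scnn1b, in 59 of 59 libraries. The middle of the order was less fixed: Prss8 lay above Scnn1g in 29 of 30 silica libraries and in 17 of 29 air libraries. In air rats this order differed by time: Prss8 was the higher in 5 of 5 rats at 1 month, 1 of 5 at 3 months, 3 of 5 at 6, 3 of 4 at 9, 2 of 5 at 12 and 3 of 5 at 18 months. At 1 month the air values were separate, Prss8 at 8.84 to 11.04 FPKM and Scnn1g at 5.79 to 8.16, and from 3 months on they overlapped. The levels of these 2 genes were not tested against each other.

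**Figure D1:**
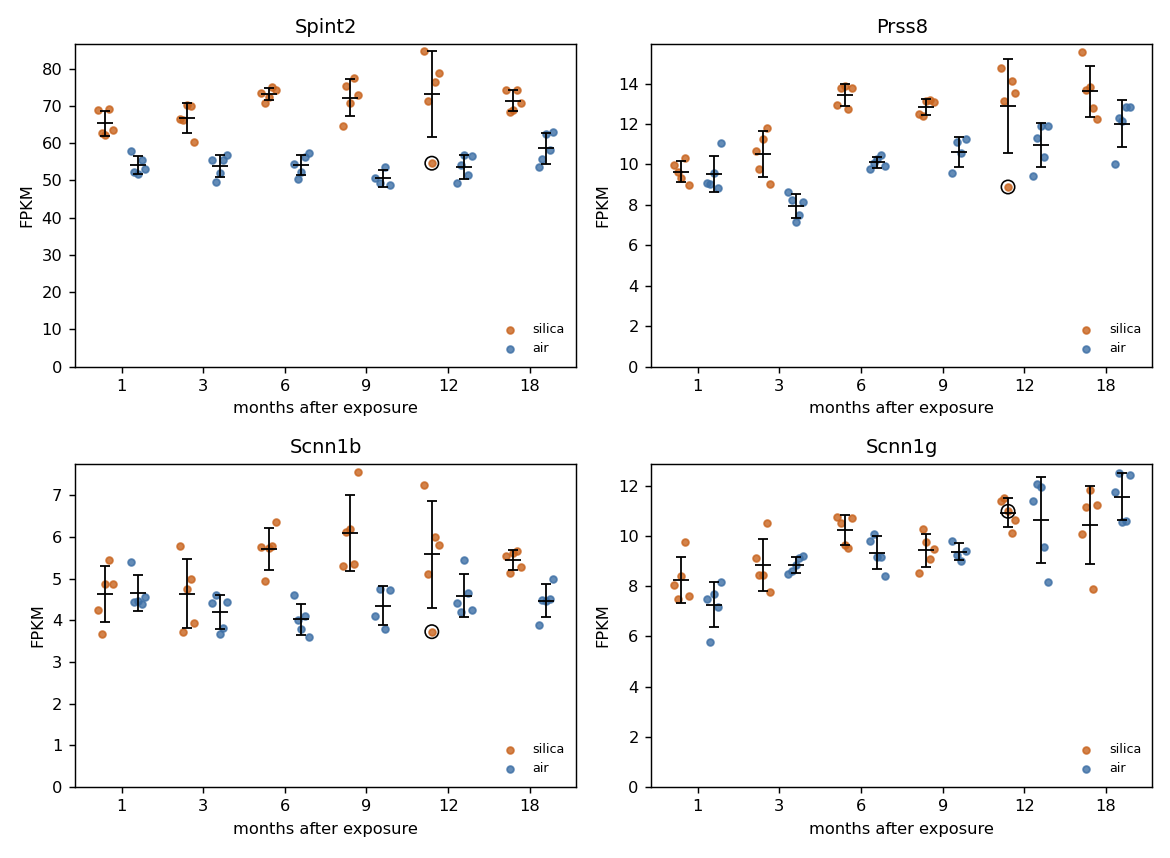
FPKM of Spint2, Prss8, Scnn1b and Scnn1g (vertical axes) in every library against months after exposure (horizontal axis), silica left of air at each time; points are libraries, black bars the mean ± SD, and the black circle marks silica rat 3 of 12 months. Spint2 of silica rats lies above that of air rats at every time except for the circled library, while Scnn1g of air rats climbs with time.

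Spint2, the inhibitor, was higher in silica lungs at all 6 times, by 1.21-fold at 1 month and 1.42-fold at 9 months. At 1 month its values were 69.0, 62.7, 62.3, 69.2 and 63.6 FPKM in silica rats, against 57.8, 52.3, 51.9, 55.4 and 53.2 in air rats. At 3 months they were 66.5, 66.3, 70.3, 69.9 and 60.3 in silica rats, against 55.4, 49.7, 51.9, 55.5 and 57.0 in air rats. The groups did not overlap at either time, and the lowest silica rat of 3 months came within a few FPKM of the highest air rat. Fitted log2 changes were 0.27 ± 0.068 at 1 month and 0.30 ± 0.068 at 3 months (SE, limma adjusted p = 0.0075 and 8.58e-04).

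The largest differences of Spint2 among the 6 times came at 6, 9 and 12 months. Silica rats of 6 months had 73.5, 70.8, 72.5, 75.1 and 74.2 FPKM, against 54.5, 50.5, 52.3, 56.2 and 57.3 in air rats. Those of 9 months had 64.6, 75.3, 70.8, 77.5 and 73.0, against 50.6, 49.2, 53.6 and 48.7 in air rats. Both times gave groups that were fully separate, with log2 changes of 0.43 ± 0.068 and 0.51 ± 0.072 (SE, limma adjusted p = 2.49e-06 and 5.56e-07). The 12-month values were 84.8, 71.4, 54.6, 76.6 and 79.0 in silica rats, against 49.4, 54.1, 56.8, 51.4 and 56.4 in air rats. Here the groups overlapped through silica rat 3 alone, and the change was 0.43 ± 0.068 with it and 0.54 without it (limma adjusted p = 1.18e-05 and 1.90e-10). With only the 12-month libraries in the fit, the limma adjusted p was 0.103.

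At 18 months Spint2 stood at 74.4, 68.5, 69.0, 74.4 and 70.8 FPKM in silica rats, against 53.6, 55.6, 62.6, 58.1 and 63.2 in air rats. The groups were separate, and log2(FPKM + 0.5) differed by 0.29 ± 0.068 (SE, limma adjusted p = 0.00254). Exact permutation tests of each time, adjusted over 24 tests of the 4 genes, gave 0.0173 at the 5 times without overlap and 0.0476 at 12 months. The smallest unadjusted p that 5 rats against 5 allow is 0.00794. Spint2 was among 41 of 1278 tested genes (3.21%) that were called higher at all 6 times. That status depended on scaling: under quantile normalization the changes at 1, 3 and 18 months missed the threshold (0.20, 0.14 and 0.15, limma adjusted p = 0.0725, 0.168 and 0.145), and after median centring that at 1 month did (0.18, limma adjusted p = 0.0871). The mean over times was 0.37 ± 0.028, a 1.29-fold difference and place 18 of 1278 by p (limma adjusted p = 2.32e-16), and 0.39 without silica rat 3 of 12 months (limma adjusted p = 7.99e-21).

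Prss8, the protease that Spint2 restrains, was higher in silica lungs at 3, 6 and 9 months. At 1 month it had 9.99, 9.63, 9.33, 10.3 and 8.98 FPKM in silica rats, against 9.08, 9.05, 9.56, 8.84 and 11.04 in air rats. These groups overlapped throughout, with a log2 change of 0.02 ± 0.083 whose 95% interval ran from -0.14 to 0.19 and which was negative under both other scalings (-0.07 and -0.11). At 3 months silica rats had 10.6, 9.77, 11.3, 11.8 and 9.02, against 8.64, 8.23, 7.15, 7.50 and 8.14 in air rats. Both groups of 3 months were separate, and the change was 0.38 ± 0.083 (SE, limma adjusted p = 6.63e-04).

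At 6 months Prss8 was at 13.0, 13.8, 13.9, 12.8 and 13.8 FPKM in silica rats, against 9.76, 10.1, 10.3, 10.4 and 9.94 in air rats. The 2 groups were tight and apart, differing by 0.39 ± 0.083 (SE, limma adjusted p = 2.35e-04). At 9 months it was at 12.5, 12.4, 13.1, 13.2 and 13.1 in silica rats, against 9.58, 11.1, 10.6 and 11.2 in air rats. They were again separate, with a smaller change of 0.27 ± 0.088 (SE, limma adjusted p = 0.0166), which missed the threshold under quantile normalization (0.17, adjusted p = 0.0760) and without air rat 1 of 9 months (0.22, adjusted p = 0.0787). The 3 times without overlap had an adjusted p of 0.0173 in the exact permutation tests.

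At 12 months Prss8 was at 14.8, 13.1, 8.88, 14.1 and 13.5 FPKM in silica rats, against 9.41, 11.3, 11.9, 10.4 and 11.9 in air rats. Silica rat 3 was the lowest of all 10, and the other 4 silica rats lay above every air rat. The change was 0.21 ± 0.083 with all libraries and 0.33 without silica rat 3 (limma adjusted p = 0.0578 and 2.20e-04). Leaving out the lowest silica rat had to raise it. It also passed the threshold without air rat 3 or air rat 5, at 0.24 each (limma adjusted p = 0.0437 and 0.0457). At 18 months Prss8 was at 15.5, 13.7, 13.8, 12.8 and 12.2 in silica rats, against 10.01, 12.3, 12.1, 12.8 and 12.8 in air rats. The groups overlapped, and the change of 0.18 ± 0.083 was not called (limma adjusted p = 0.145). Over the 6 times the mean change was 0.24 ± 0.034, or 1.18-fold (limma adjusted p = 3.50e-08), and 0.26 without silica rat 3 of 12 months (limma adjusted p = 1.72e-11).

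Prss8 overlaps the gene Kat8 in the RefSeq annotation of GRCr8. The kit is a stranded one, but the strand setting used for the FPKM is not given in the sources used here, so reads from the shared stretch could have counted for either gene and the level of Prss8 is uncertain to that extent. Kat8, a histone acetyltransferase, averaged 4.15 ± 0.540 FPKM in silica rats and 4.30 ± 0.575 in air rats (SD, n = 30 and 29). Its change in the mean over times was -0.05 ± 0.041 (SE, limma adjusted p = 0.320), and at 9 months it was called lower at -0.27 ± 0.11 (SE, limma adjusted p = 0.0461), where Prss8 was called higher.

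Scnn1b, the beta subunit, was higher in silica lungs at 6 and 9 months and not called at the other 4 times. At 1 month it had 4.26, 3.68, 4.88, 5.44 and 4.88 FPKM in silica rats, against 5.41, 4.44, 4.47, 4.38 and 4.56 in air rats. At 3 months it had 5.79, 3.72, 4.76, 5.00 and 3.95 in silica rats, against 4.42, 4.60, 3.68, 3.82 and 4.44 in air rats. The groups overlapped at both times, with log2 changes of -0.01 ± 0.11 and 0.12 ± 0.11 (SE, limma adjusted p = 0.973 and 0.469). The spread among silica rats was wider than among air rats at both times.

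At 6 months Scnn1b was at 5.77, 4.95, 5.73, 5.78 and 6.36 FPKM in silica rats, against 4.61, 4.01, 3.79, 4.10 and 3.602 in air rats. At 9 months it was at 5.30, 6.11, 6.20, 5.35 and 7.55 in silica rats, against 4.11, 4.75, 3.80 and 4.73 in air rats. Every silica rat exceeded every air rat at both times, and the changes were 0.46 ± 0.11 and 0.44 ± 0.11 (SE, limma adjusted p = 8.27e-04 and 0.00207). These are 1.37-fold and 1.36-fold differences, close in size to those of Spint2 at the same times.

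At 12 months Scnn1b was at 7.26, 5.12, 3.73, 6.00 and 5.80 FPKM in silica rats, against 4.42, 4.21, 5.44, 4.65 and 4.25 in air rats. Silica rat 3 was again the lowest of the 10, and the change was 0.23 ± 0.11 with it and 0.36 without it (limma adjusted p = 0.105 and 0.00420). At 18 months it was at 5.55, 5.13, 5.63, 5.67 and 5.28 in silica rats, against 3.89, 4.48, 4.46, 4.52 and 5.00 in air rats. The groups did not overlap, although the change of 0.26 ± 0.11 was not called in the fit over all libraries (limma adjusted p = 0.0870). The exact permutation test of that time, adjusted over 24 tests, gave 0.0173, and limma on the 18-month libraries alone gave an adjusted p of 0.0226. Over the 6 times the mean change was 0.25 ± 0.044, or 1.19-fold (limma adjusted p = 3.03e-06), and 0.27 without silica rat 3 of 12 months (limma adjusted p = 6.35e-08).

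Scnn1g, the gamma subunit that carries the protease-cleaved tract, was not called at any of the 6 times. At 1 month it had 8.04, 7.48, 8.40, 9.75 and 7.61 FPKM in silica rats, against 7.50, 5.79, 7.71, 7.15 and 8.16 in air rats. At 3 months it had 9.13, 8.43, 8.43, 10.5 and 7.76 in silica rats, against 8.48, 8.62, 8.86, 9.13 and 9.204 in air rats. At 6 months it had 10.8, 10.5, 9.66, 9.54 and 10.7 in silica rats, against 9.82, 10.1, 9.18, 9.17 and 8.40 in air rats. All 3 times gave overlapping groups, with log2 changes of 0.18 ± 0.087, -0.01 ± 0.087 and 0.13 ± 0.087 (SE, limma adjusted p = 0.224, 0.965 and 0.294).

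The later times of Scnn1g showed the same overlap. At 9 months it was at 8.54, 10.3, 9.76, 9.10 and 9.48 FPKM in silica rats, against 9.82, 9.25, 9.01 and 9.40 in air rats. At 12 months it was at 11.4, 11.5, 10.99, 10.1 and 10.7 in silica rats, against 11.4, 12.1, 12.0, 9.58 and 8.18 in air rats. At 18 months it was at 10.1, 11.2, 11.8, 7.88 and 11.2 in silica rats, against 11.7, 12.5, 10.6, 10.6 and 12.4 in air rats. The log2 changes were 0.01 ± 0.093, 0.05 ± 0.087 and -0.15 ± 0.087 (SE, limma adjusted p = 0.968, 0.723 and 0.244). Over the 6 times the mean change was 0.03 ± 0.036, with a 95% interval from -0.04 to 0.11, where the other 3 genes had mean changes of 0.24 to 0.37 (limma adjusted p = 0.445). Its sign was negative under median centring and under quantile normalization (-0.03 and -0.06). Silica rat 3 of 12 months, at 10.99 FPKM, was inside its group for this gene, and without it the change was 0.05 at 12 months and 0.03 in the mean over times (limma adjusted p = 0.735 and 0.452).

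**Figure D2:**
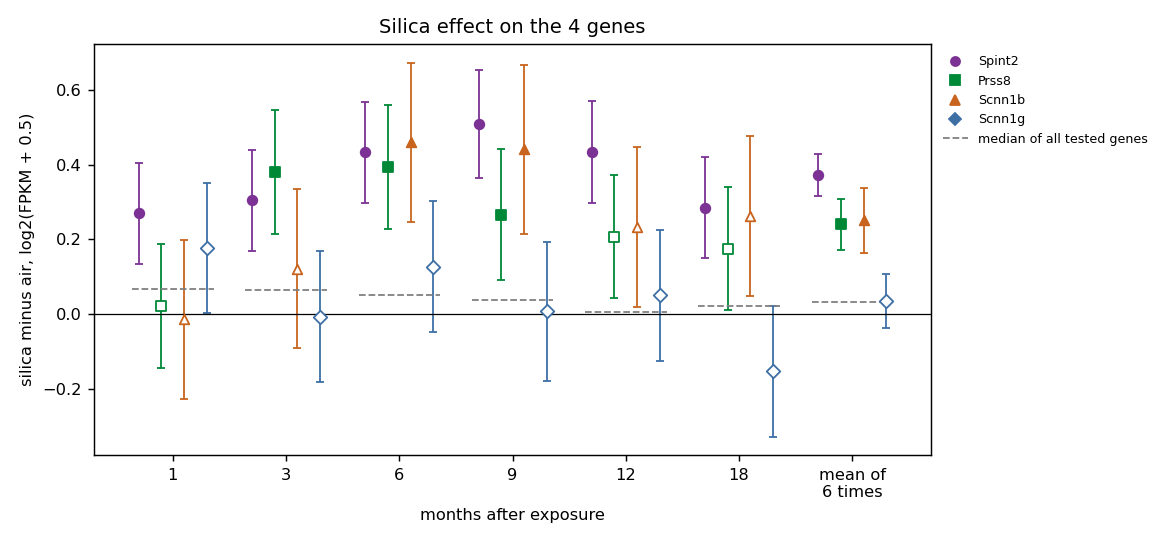
Difference between silica and air rats in log2(FPKM + 0.5) (vertical axis) at each time after exposure and in the mean of the 6 times (horizontal axis); bars are 95% confidence intervals from limma, filled symbols have an adjusted p under 0.05, open ones do not, and dashes give the median of all 1278 tested genes. Spint2 is filled at all 6 times, Prss8 at 3, 6 and 9 months, Scnn1b at 6 and 9 months and Scnn1g at none.

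In count, Spint2 was called at 6 times, Prss8 at 3, Scnn1b at 2 and Scnn1g at 0. The median change of all tested genes lay between 0.01 and 0.07 at the 6 times and was 0.03 in the mean over times, where Scnn1g also stood. Groups of single genes failed to overlap in 8.84%, 12.7%, 25.2%, 24.6%, 3.36% and 11.1% of tested genes from 1 to 18 months. Against that background Spint2 was separate at 5 times, Prss8 and Scnn1b at 3 each and Scnn1g at 0.

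Whether the silica difference itself changed with time was tested with an F test over the 6 times, which called 1.33% of genes. None of the 4 genes passed it with all libraries, with limma adjusted p of 0.372 for Spint2, 0.237 for Prss8, 0.234 for Scnn1b and 0.431 for Scnn1g. Without silica rat 3 of 12 months, 78 genes passed in place of 17, and Spint2 and Prss8 were among them (limma adjusted p = 0.0368 each). Scnn1b then had 0.0665 and Scnn1g 0.392. These p-values, without a library singled out partly by its Spint2, are descriptions. The difference at 18 months minus that at 1 month was 0.02 for Spint2, 0.15 for Prss8, 0.28 for Scnn1b and -0.33 for Scnn1g, in a comparison that called 0.156% of genes (limma adjusted p = 0.958, 0.666, 0.536 and 0.317).

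Scnn1g was higher in air rats at 18 months than in air rats at 1 month. The labels give no batch, so age and anything else that differed between rats taken at these times cannot be told apart. The comparison of air rats at 18 months with air rats at 1 month called 21.8% of tested genes, including 17.4% that were higher at 18 months, and 13.1% had groups without overlap. Scnn1g averaged 11.6 ± 0.952 FPKM at 18 months and 7.26 ± 0.899 FPKM at 1 month (SD, n = 5 each). The lowest air rat of 18 months had 10.6 FPKM and the highest of 1 month 8.16, so the groups were separate. The change of 0.64 ± 0.087, or 1.56-fold, was in place 3 of 1278 by p (limma adjusted p = 6.65e-07). Air means in order of time were 7.26, 8.86, 9.34, 9.37, 10.6 and 11.6 FPKM. Silica means over the same times were 8.26, 8.85, 10.2, 9.43, 10.9 and 10.4.

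Prss8 was also higher in old air rats, at 12.0 ± 1.17 FPKM at 18 months and 9.52 ± 0.894 at 1 month (SD, n = 5 each). The groups overlapped, and the change was 0.32 ± 0.083 (SE, limma adjusted p = 0.00373). Spint2 averaged 58.6 ± 4.22 at 18 months and 54.1 ± 2.47 at 1 month, a change of 0.11 ± 0.068 that was not called (limma adjusted p = 0.245). Scnn1b averaged 4.47 ± 0.394 at 18 months and 4.65 ± 0.426 at 1 month, a change of -0.05 ± 0.11 (SE, limma adjusted p = 0.793). Silica at 1 and 18 months was set against these same air rats, so this comparison and those at 1 and 18 months share libraries.

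The ratio of the 2 subunits within a library does not depend on how the library was scaled as a whole. Scnn1g to Scnn1b at 9 months was 1.61, 1.68, 1.57, 1.70 and 1.26 in silica rats, against 2.39, 1.95, 2.37 and 1.99 in air rats. At 18 months it was 1.81, 2.17, 2.102, 1.39 and 2.13 in silica rats, against 3.02, 2.80, 2.37, 2.35 and 2.48 in air rats. Every silica ratio lay below every air ratio at both times. The log2 ratio, computed with 0.5 added to each FPKM, differed by -0.43 at 9 months and -0.42 at 18 months (exact permutation, two-sided, adjusted over 12 ratio tests, p = 0.0238 each). Leaving out 1 rat at 9 months gave -0.48 to -0.36 with adjusted p of 0.0357 to 0.0686, where 4 rats a group, or 5 against 3, limit the test.

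At 6 months the subunit ratio was 1.86, 2.12, 1.69, 1.65 and 1.68 in silica rats, against 2.13, 2.52, 2.42, 2.24 and 2.33 in air rats, a log2 difference of -0.33 (exact permutation adjusted p = 0.0381). The highest silica ratio and the lowest air ratio were almost equal, and with 0.5 added to each FPKM the groups overlapped. At 1, 3 and 12 months the differences were 0.19, -0.13 and -0.18 and were not past the threshold (exact permutation adjusted p = 0.163, 0.314 and 0.372). At 12 months, silica rat 3 had the highest ratio of the 10 rats, 2.95, and the difference without it was -0.31 (exact permutation adjusted p = 0.136). The mean over the 6 times, a test added after the data were seen, was -0.22, or 0.860-fold, with a permutation p of 2.90e-04, and -0.24 without silica rat 3 (permutation p = 8e-05). In air rats the same ratio was higher at 18 months than at 1 month by 0.69 on the log2 scale (exact permutation p = 0.00794, the smallest possible, 0.0159 adjusted over both ratios). These 2 comparisons share the air rats of both times.

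**Figure D3:**
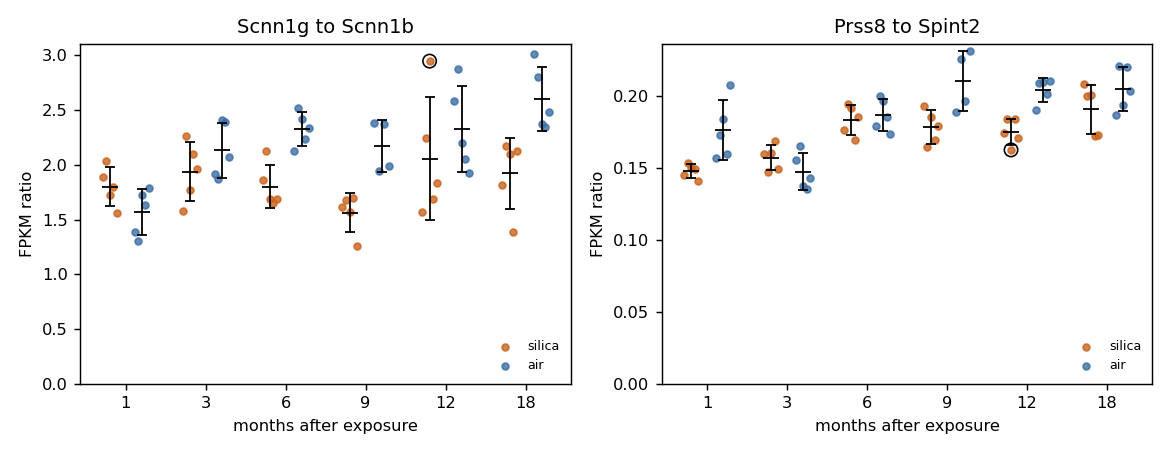
Ratio of Scnn1g to Scnn1b and of Prss8 to Spint2 in FPKM (vertical axes) in every library against months after exposure (horizontal axis), silica left of air; points are libraries, black bars the mean ± SD, and the black circle is silica rat 3 of 12 months. The subunit ratios of silica rats lie below those of air rats at 9 and 18 months, and the protease ratios do at 1 and 12 months.

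Prss8 and Spint2 form the protease and inhibitor pair, and their ratio was lower in silica rats at 1, 9 and 12 months. At 1 month it was 0.145, 0.154, 0.150, 0.149 and 0.141 in silica rats, against 0.157, 0.173, 0.184, 0.1596 and 0.208 in air rats. At 12 months it was 0.174, 0.184, 0.163, 0.184 and 0.171 in silica rats, against 0.191, 0.209, 0.210, 0.201 and 0.210 in air rats. Both times gave separate groups, with log2 differences of -0.25 and -0.23 (exact permutation adjusted p = 0.0238 each), and at 12 months silica rat 3 kept to its group's side. At 9 months the ratio was 0.193, 0.165, 0.186, 0.170 and 0.1795 in silica rats, against 0.189, 0.226, 0.197 and 0.231 in air rats. These groups overlapped slightly, with a difference of -0.24 (exact permutation adjusted p = 0.0476) that missed the threshold in 8 of 9 tests leaving out 1 rat.

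At the remaining 3 times the protease ratio did not pass the threshold, with differences of 0.08 at 3 months, -0.04 at 6 months and -0.11 at 18 months (exact permutation adjusted p = 0.314, 0.460 and 0.250). Its mean over the 6 times was -0.13, or 0.913-fold (permutation p = 9e-05), and 5 of 6 times were below 0. Without silica rat 3 of 12 months it was -0.13, or 0.915-fold (permutation p = 1.30e-04). In air rats the ratio was higher at 18 months than at 1 month by 0.21 (exact permutation p = 0.0476). The pooled and the age tests of this ratio were also added after the data were seen.

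Rats of one group that had more of one gene also tended to have more of another, for 3 of the 6 pairs. Correlations were computed over 59 libraries from deviations of log2(FPKM + 0.5) from the own group's mean, with permutation p-values from 100000 resamples within groups adjusted over the 6 pairs. Spint2 with Prss8 had Pearson's r = 0.656 (permutation adjusted p = 0.00129) and Spearman's rho = 0.435 (permutation adjusted p = 0.00846). Without the 2 libraries farthest from the median of Spint2, r was 0.440. Without silica rat 3 of 12 months it was 0.434 (permutation adjusted p = 0.0115). Part of the pooled value therefore rests on that library, and the relation passed the threshold without it.

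Spint2 with Scnn1b had r = 0.543 and rho = 0.359 (permutation adjusted p = 0.00542 and 0.0280), r = 0.307 without the 2 farthest libraries, and r = 0.353 without silica rat 3 alone (permutation adjusted p = 0.0440). Its rho without that rat was 0.321 and missed the threshold (permutation adjusted p = 0.0598). Prss8 with Scnn1b had r = 0.571 and rho = 0.462 (permutation adjusted p = 0.00129 and 0.00564), and r = 0.416 without the 2 farthest and 0.403 without silica rat 3 (permutation adjusted p = 0.0115). For Scnn1g, r was 0.007 with Spint2, 0.138 with Prss8 and 0.255 with Scnn1b, and rho was -0.013, 0.125 and 0.258 (permutation adjusted p for r = 0.955, 0.413 and 0.0662). Without the 2 farthest libraries these r were -0.011, 0.191 and 0.283. The r of Scnn1g with Scnn1b passed the threshold without silica rat 3, at 0.295 (permutation adjusted p = 0.0479). Differences between these correlations were not tested. All values of a library share its depth and scaling, and the labels name no batch within which to repeat the correlation. After centring each library on its median, r was 0.611 for Spint2 with Prss8 (permutation adjusted p = 0.00120). It was 0.471 for Spint2 with Scnn1b and 0.509 for Prss8 with Scnn1b (permutation adjusted p = 0.00790 and 0.00378). For Scnn1g it was -0.056 with Spint2, 0.055 with Prss8 and 0.177 with Scnn1b. Other gene pairs were not computed, so these have no background share.

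Likeness of pattern was measured as the root mean square difference between the 6 silica changes of 2 genes, over 1007 genes with a symbol. Between the 4 genes it was 0.137 for Prss8 and Scnn1b, 0.163 for Spint2 and Scnn1b and 0.179 for Spint2 and Prss8, while Scnn1g was 0.272 to 0.363 from the others. Nearest to Spint2 were Vasp (0.0591), Eml2 (0.0603) and Cblc (0.0729). Nearest to Prss8 were Med10 (0.0597), Pex7 (0.0631) and Isoc2b (0.0643), and to Scnn1b Vimp (0.0545), Pdcd6 (0.0634) and Fuca2 (0.0734). Scnn1g was nearest to Pcmt1 (0.0547), Zfp143 (0.0650) and Mrpl48 (0.0698). The neighbours were picked as the nearest of all genes compared, so their closeness is a description. Without silica rat 3 of 12 months the nearest gene was Vasp for Spint2, Med10 for Prss8, Pdcd6 for Scnn1b and Pcmt1 for Scnn1g.

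The rest of the channel's pathway was read from a list of 23 regulators, of which 5 were in the table and tested. In the mean over times 3 were called higher and 1 lower, with a median change of 0.29, against 37.5% called higher, 20.1% lower and a median of 0.03 over all tested genes. Without silica rat 3 of 12 months, 3 were called higher and 1 lower (median 0.30), against 38.7% and 20.8% of all tested genes. Sgk1, the kinase that keeps the channel at the surface, averaged 21.7 ± 3.53 FPKM in silica rats and 17.5 ± 1.55 in air rats (SD, n = 30 and 29), a change of 0.29 ± 0.041 (SE, limma adjusted p = 2.86e-08). It was not called at 1 and 3 months and was called at the 4 later times, at 6 months with 25.2 ± 1.03 FPKM in silica rats and 17.9 ± 0.747 in air rats (SD, n = 5 each). Furin, which cuts the gamma subunit during maturation, averaged 13.6 ± 1.69 in silica rats and 11.02 ± 1.55 in air rats, a change of 0.29 ± 0.037 (SE, limma adjusted p = 2.09e-09). It was called at every time but 3 months, and between air rats of 18 months and 1 month it differed by 0.32 ± 0.089 (SE, limma adjusted p = 0.00669), the only one of the 5 called there.

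Plaur, the urokinase receptor, had the largest change of the 5, at 5.99 ± 1.65 FPKM in silica rats and 2.82 ± 0.579 in air rats (SD, n = 30 and 29), a change of 0.93 ± 0.070 (SE, limma adjusted p = 2.32e-16). Cnksr3, a scaffold through which aldosterone signalling acts on the channel in kidney cells, was lower, at 3.29 ± 0.394 in silica rats and 3.72 ± 0.330 in air rats, a change of -0.16 ± 0.034 (SE, limma adjusted p = 8.26e-05). Plg, the plasmin precursor, was at 1.23 ± 0.934 in silica rats and 1.31 ± 1.31 in air rats and was not called (limma adjusted p = 0.933). By time 1, 1, 3, 3, 3 and 3 of the 5 were called higher, and 0, 0, 1, 1, 1 and 0 lower. At 12 months the counts were also 3 and 1 without silica rat 3. Over all tested genes 8.45%, 15.9%, 21.2%, 19.5%, 14.6% and 11.8% were called higher at these times, and 0.391%, 2.35%, 6.42%, 11.3%, 9.08% and 3.52% lower.

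Genes of alveolar ion and fluid transport were the next list, with 8 of 29 in the table and 7 tested, of which 4 were called higher and 3 lower in the mean over times (median 0.38), against 37.5% and 20.1% of all tested genes. The counts were 4 and 3 without silica rat 3 of 12 months as well. P2ry2, the ATP and UTP receptor that lowers ENaC activity in airway epithelium, averaged 11.3 ± 1.87 FPKM in silica rats and 5.77 ± 0.838 in air rats (SD, n = 30 and 29), a change of 0.90 ± 0.063 (SE, limma adjusted p = 2.70e-17). Fxyd5 and Fxyd3, small partners of the sodium pump, changed by 0.69 ± 0.060 and 0.69 ± 0.062 (SE, limma adjusted p = 3.18e-14 and 1.37e-13), and P2ry6, a UDP receptor, by 0.38 ± 0.049 (SE, limma adjusted p = 3.79e-09). Fxyd1, phospholemman, a pump partner best known from heart and skeletal muscle, was lower, at -0.42 ± 0.063 (SE, limma adjusted p = 1.03e-07). By time 3, 4, 4, 4, 3 and 4 of the 7 were called higher, and 0, 0, 0, 3, 1 and 1 lower, with 4 higher and 3 lower at 12 months without silica rat 3, where 21.9% and 13.8% of all tested genes were called.

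Serine proteases, inhibitors and related genes other than Prss8 and Spint2 had 18 of 27 list members in the table and 10 tested. In the mean over times 6 were called higher and 3 lower (median 0.31), against 37.5% and 20.1% of all tested genes. The 6 include Plaur, a receptor and not a protease. The counts were also 6 and 3 when silica rat 3 of 12 months was left out (median 0.32). Besides Plaur and Furin, which this list shares, the called genes with the smallest p were Tpp1, a lysosomal peptidase, at 0.35 ± 0.028, Prcp, a carboxypeptidase, at 0.61 ± 0.051, and Hpn, a membrane serine protease, at 0.43 ± 0.056 (SE, limma adjusted p = 3.10e-15, 8.15e-15 and 5.01e-09). Hpn was low, at 2.49 ± 0.700 FPKM in silica rats and 1.73 ± 0.568 in air rats (SD, n = 30 and 29). The 3 called lower were Pcsk6 at -0.23, Prss23 at -0.09 and Serpinh1 at -0.08. By time 4, 4, 5, 6, 6 and 5 of the 10 were called higher, and 0, 0, 1, 1, 1 and 1 lower, with 6 and 2 at 12 months without silica rat 3.

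Genes linked to epithelial adhesion had 6 of 24 in the table, with 3 called higher and 1 lower in the mean over times (median 0.08). Over all tested genes 37.5% were called higher and 20.1% lower. Leaving out silica rat 3 of 12 months gave 3 higher and 2 lower (median 0.08). Lsr, a tricellular junction protein, changed by 0.35 ± 0.042, Capn5, a calpain protease, by 0.21 ± 0.027, and Cblc, an epithelial ubiquitin ligase, by 0.37 ± 0.051 (SE, limma adjusted p = 5.99e-10, 3.83e-09 and 1.69e-08). Tjp1, the tight junction scaffold ZO-1, was lower, at 28.4 ± 2.42 FPKM in silica rats and 32.4 ± 4.05 in air rats, a change of -0.18 ± 0.031 (SE, limma adjusted p = 1.83e-06). By time 1, 2, 3, 3, 2 and 2 of the 6 were called higher, and 0, 1, 1, 1, 0 and 0 lower, with 3 and 1 at 12 months without silica rat 3.

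**Figure D4:**
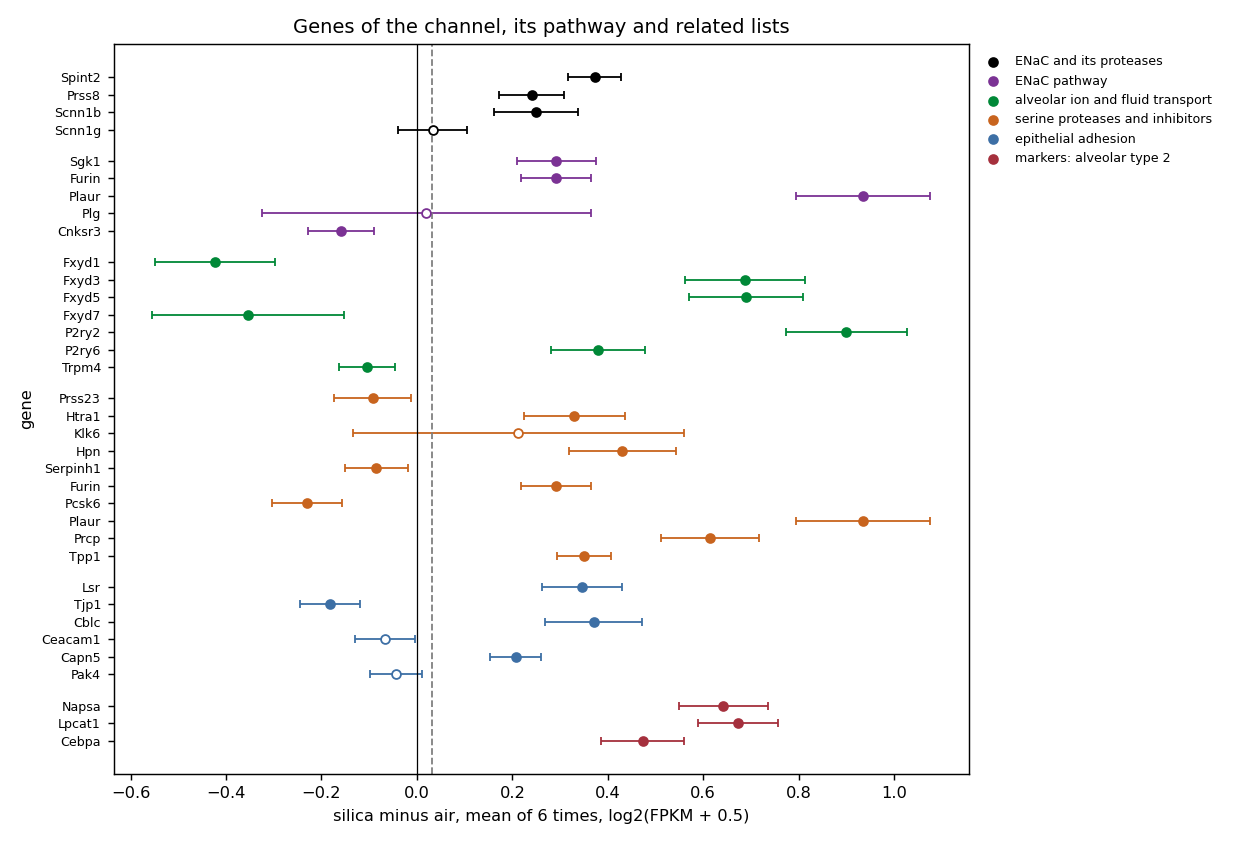
Difference between silica and air rats in log2(FPKM + 0.5), mean of the 6 times (horizontal axis), for each tested gene of the lists (vertical axis, colours by list); bars are 95% confidence intervals from limma, filled points have an adjusted p under 0.05, and the dashed line is the median of all tested genes, 0.03. Scnn1g lies on that median while Spint2, Prss8 and Scnn1b lie to its right, below the type 2 markers at 0.47 to 0.67.

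Other cell types' markers moved with exposure as well. The 3 of 6 neutrophil markers in the table rose: Cd177 averaged 37.0 ± 8.54 FPKM in silica rats and 9.24 ± 3.81 in air rats (SD, n = 30 and 29), a change of 2.0 ± 0.093, Ceacam10 changed by 1.21 ± 0.084 and Itgam by 0.93 ± 0.084 (SE, limma adjusted p = 2.43e-24, 2.65e-17 and 1.39e-13). Of the macrophage markers 2 of 6 were present, Itgax at 0.73 ± 0.055 and Siglec5 at 0.20 ± 0.039 (SE, limma adjusted p = 2.32e-16 and 1.90e-05). The 2 of 6 endothelial markers fell, with changes of -0.25 ± 0.027 for Ehd2 and -0.33 ± 0.046 for Rasip1 (SE, limma adjusted p = 1.56e-11 and 3.26e-08). The 1 of 8 club cell markers, Cyp2f4, was not called, at -0.20 ± 0.16 (SE, limma adjusted p = 0.297). The part of these shifts in the values of the 4 channel genes and of the list genes, Plaur among them, was not tested.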

How the data were processed

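The values the authors deposited are FPKM, as the table's title says, with a line for each gene symbol and a column for each library. Per the labels' protocols, RNA came from miRNeasy kits with a DNase step, and the library kit was TruSeq Stranded Total RNA with Ribo-Zero Gold. Per the submitters' processing notes, the tools included bcl2fastq 2.19 and Trimmomatic 0.35, TopHat2 2.0.9 with Bowtie2 2.2.9, and Cufflinks 2.1.1. Build, annotation and strand setting are not given in the sources used here. Cufflinks estimates fragments per gene, so reads shared by overlapping genes can move between them.

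Of 2888 entries the last was incomplete and left out. RefSeq names of GRCr8 matched 2061 entries, as symbols or synonyms, and 2045 of these lay on chromosome 1. That table served for names and neighbours only. Testing required an FPKM of 1 or more in 4 or more libraries, which 1278 genes met and 1609 did not. A single limma 3.58.1 fit (R 4.3.3) took all 12 groups on the log2(FPKM + 0.5) scale, used the intensity trend and had no batch term, since none is labelled. It left 47 residual degrees of freedom, with a prior of 3.41. Benjamini-Hochberg adjustment covered all genes tested in a comparison, at a threshold of 0.05. Fold changes on this scale understate those of low genes. Ratios and single genes were tested by two-sided exact permutation, and plots were drawn with Python 3.11.15 and matplotlib 3.10.9.

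FPKM do not state the depth. In 261 sparse entries 64.9% of 1997 values lay within log2 0.1 of 1 step and 8.56% of 2 steps once libraries were scaled, which gave relative depths of 0.431 to 2.27 but no whole reads for most genes. Per the labels each library is a separate rat, and p-values reflect the variation among rats, which are numbered only to name them. The rule that takes the 4 genes uses their symbols and no measured value, but the set and the lists were proposed with earlier results of these data known. At most 5 genes per list are named by rule, those called in the mean over times with the smallest p. Plg, the uncalled pathway gene, the serine protease list genes called lower and the pattern neighbours are given besides. Alternatives were pseudocounts of 0.1 and 1, no filter, a filter of 30 libraries, median centring, quantile normalization, no intensity trend, fits of single times and leaving out each library.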

Additional observations from a re-analysis of the deposited data

Results flagged for a closer look

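Among 72 groups of libraries, 4 held a library far from the others, where chance flags about 1 in 20 groups. Prss8 in silica rat 3 of 12 months was at 8.88 FPKM, below the other 4 rats at 13.1 to 14.8. This is the library that stood apart in other measures too. Prss8 in air rat 1 of 18 months was at 10.01 FPKM, below the other 4 at 12.1 to 12.8. Scnn1b in air rat 1 of 1 month was at 5.41 FPKM, above the other 4 at 4.38 to 4.56. The ratio of Scnn1g to Scnn1b in silica rat 5 of 9 months was 1.26, below the other 4 at 1.57 to 1.70, and this rat had the highest Scnn1b of its group, at 7.55 FPKM.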

How the results depend on the processing

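No paired analysis was possible because the labels give no replicate numbers shared between groups. Of 434 values under other settings, 410 counted as kept. For changes, ratios and correlations this means the same direction and side of the threshold, and for F tests the same side. The 434 also include numbers of genes called, which counted as kept by a looser rule, when near the main number. No scaling moved the median of all genes by more than 0.1. Median centring gave Spint2 at 1 month 0.18, Prss8 at 1 month -0.069, Scnn1g at 9 months -0.031 and in the mean over times -0.028, 65 genes called at 1 month, and a correlation of Spint2 with Scnn1g of -0.056. Quantile normalization gave Spint2 0.20 at 1 month, 0.14 at 3, 0.15 at 18 and -0.059 for 18 months minus 1 month; Prss8 -0.11 at 1 month and 0.17 at 9; Scnn1g -0.020 at 6 months, -0.070 at 9, -0.015 at 12 and -0.061 in the mean over times. The cause was not tested. Fits of single times, which estimate the spread from the libraries of that time only, gave Spint2 0.43 at 12 months (limma adjusted p = 0.103) with 1 gene called in place of 302. They gave Scnn1b 0.26 at 18 months (limma adjusted p = 0.0226) with 130 genes in place of 196. Exact permutation gave the same 0.26 (adjusted p = 0.0173). At 1, 3, 6 and 9 months such fits called 110, 209, 453 and 330 genes, in place of 113, 233, 353 and 393. The fit over all libraries used a common spread for all groups of a gene. For Spint2 the SD of silica rats was 11.5 FPKM at 12 months and 1.68 to 4.97 at the other times. With no filter 1 gene was called for 18 months minus 1 month and 5 by the F test, and with the filter of 30 libraries 0 for 18 months minus 1 month, in place of 2, 17 and 2.

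For leaving out a library, type 2 marker sums counted as kept when they moved by less than their spread. That spread included the library left out, silica rat 3 of 12 months, so the 12-month sum had to count as kept. By the rules above otherwise, leaving out a library kept 1098 of 1161 values. Ranges where it did not were, for Prss8, -0.0023 to 0.074 at 1 month, 0.22 to 0.29 at 9, 0.15 to 0.33 at 12, and an F test p of 0.0368 to 0.345. For Scnn1b they were -0.070 to 0.057 at 1 month and 0.14 to 0.36 at 12, for Scnn1g -0.068 to 0.036 at 3 months, -0.023 to 0.040 at 9 and -0.036 to 0.099 at 12, and for Spint2 an F test p of 0.0368 to 0.470 and -0.016 to 0.043 for 18 months minus 1 month. The 9-month ratios ranged from -0.48 to -0.36 for Scnn1g to Scnn1b and from -0.29 to -0.20 for Prss8 to Spint2. The correlation of Scnn1b with Scnn1g was 0.295. Called genes numbered 44 to 136 at 1 month, 195 to 457 at 12 (the most without silica rat 3), 112 to 214 at 18, 10 to 78 by the F test and 1 to 2 for 18 months minus 1 month. Depth is unknown, and 4 or 5 rats per group limit the precision.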
